A study of Mus musculus with 32 samples.

Results

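The genes described here are 37 mouse genes of the interferon response and of antigen presentation, measured by RNA sequencing of brain. They were taken from the 57010 entries of the deposited count table by gene name: 7 genes of MHC class I presentation, 5 of MHC class II presentation, 4 transcription factors, 15 genes induced by type I interferon, and 6 guanylate-binding or immunity-related GTPases. All 37 were found, 36 passed the filter on low counts, and Ciita, the master activator of class II transcription, did not and was left out of the tests. Interferons bind receptors on almost every cell type and act through STAT and IRF factors, which bind short DNA elements in front of antiviral genes. MHC class I molecules, which nearly all cells carry, show peptides from inside the cell to CD8 T cells. MHC class II molecules show peptides taken up from outside to CD4 T cells, and in brain they are found mainly on microglia, on macrophages at its borders and on infiltrating immune cells.

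Brain tissue homogenates of 32 mice were sequenced, 16 homozygous for human APOE3 (E3/3) and 16 homozygous for human APOE4 (E4/4), the apolipoprotein E variants that the mice carry in place of their own gene. Within each genotype, 8 mice (4 females and 4 males) were given D4F, a peptide that mimics apolipoprotein A-I, and 8 (4 and 4) were given the vehicle PBS. Dosing was daily for 12 weeks, from about 10.5 to 13.2 months of age. Each library came from 1 mouse, and in bulk tissue fewer cells of a type and less RNA per cell cannot be told apart. The libraries held 17.77 to 45.06 M counts, and the totals fell into a lower class of 11 libraries and a higher class of 21, divided at 26 M. Of the shallower 11, 6 were E3/3 vehicle mice, 2 E3/3 D4F mice, 1 an E4/4 vehicle mouse and 2 E4/4 D4F mice. Depth thus moved with the comparisons that use the E3/3 vehicle mice, and counts from fits with depth class as a term are given beside them. Fits of the higher-depth libraries alone keep 2 E3/3 vehicle mice, a female and a male. The library numbers of the E3/3 and the E4/4 mice come from separate runs of numbers, whose meaning the labels do not give, so any batch they mark and genotype cannot be told apart. Neuron markers were abundant, with median counts per gene of 6079.5 to 89413.5. Values below are counts-per-million values (CPM) scaled by the trimmed mean of M values, and changes are log2 fold changes with their standard error (SE).

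Libraries that stood apart are described first. Vehicle-treated E3/3 female 1 was the highest of the 32 mice for 18 of the 37 genes (48.6%), against 9.02% of all tested genes, and was among the top 3 for 24. These 18 included all 5 class II genes, 4 of the 7 class I genes and 7 of the 15 type I interferon-induced genes. Vehicle-treated E3/3 female 2 was the highest for another 6 genes (16.2%, against 5.63% of all tested genes), 3 of class I and 3 GTPases. Both libraries were of the lower depth class. In female 1 the summed CPM of 8 markers of perivascular macrophages was 19.9, with the next mouse at 14.4, and that of 8 meningeal fibroblast markers was 191, with the next at 110. Its sum of 8 endothelial markers (278) was also the highest of the 32 mice, female 2 being next at 255, while its sum of 8 neuronal markers (5712) was the lowest. Its sums of 10 microglial markers (459) and of 8 choroid plexus markers (37.1) ranked second and 13th. The part of these cell types in the values of that mouse was not tested. Values without one or both females are given beside the comparisons that use the E3/3 vehicle mice.

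**Figure D1:**
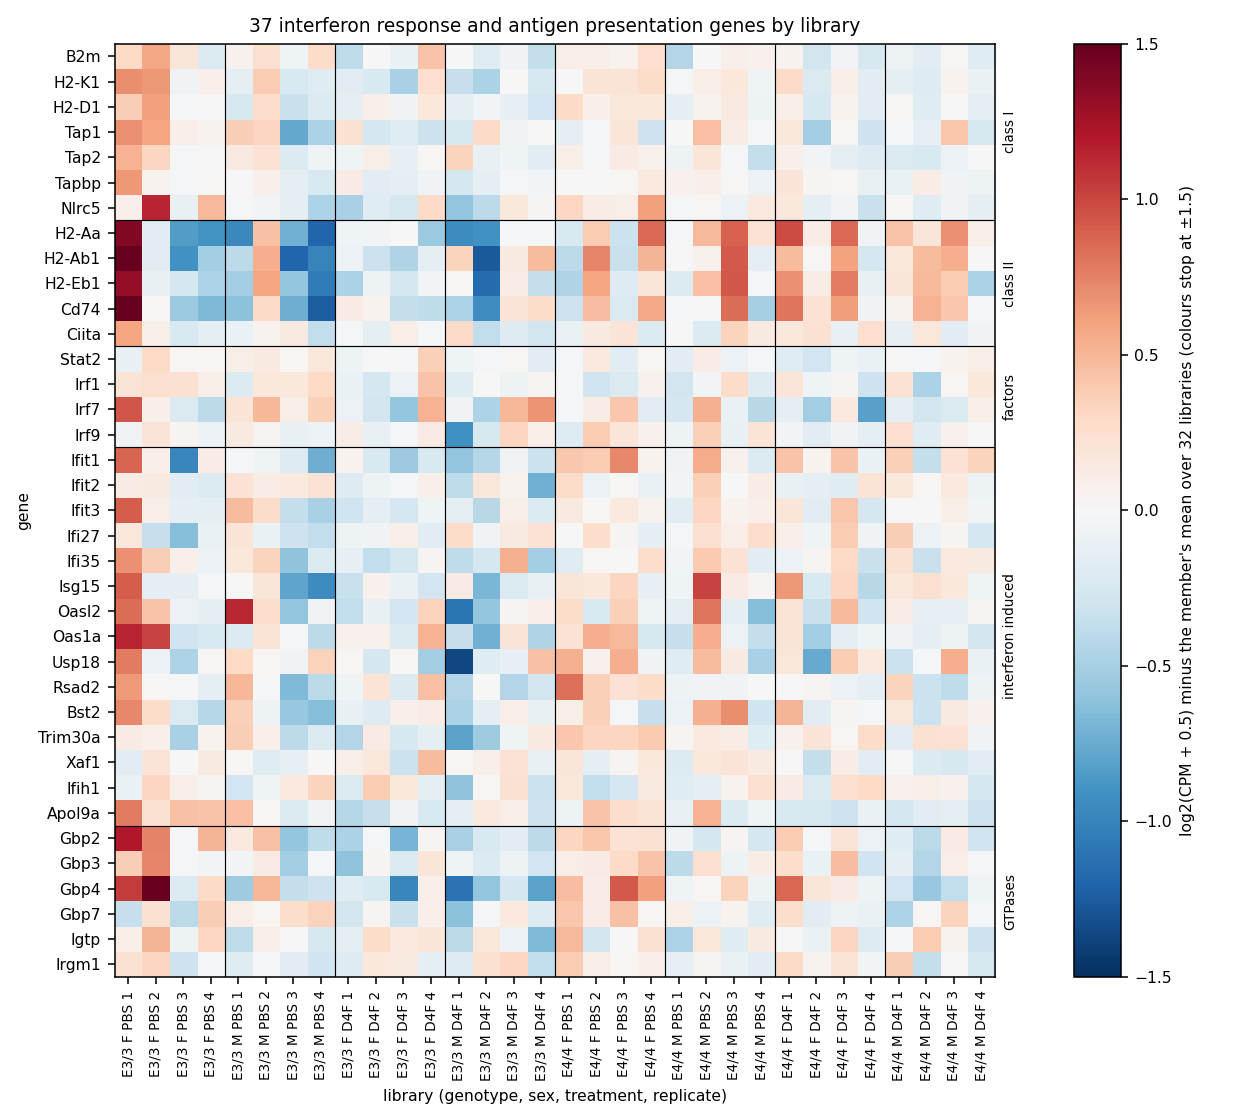
Colour shows log2(CPM + 0.5) of each of the 37 genes in each of the 32 libraries, minus the gene's mean over all libraries, with rows ordered by role and columns by genotype, sex and treatment. The column of vehicle-treated E3/3 female 1 is the reddest for class II, and class II is mostly blue in the other E3/3 vehicle mice.

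**Figure D2:**
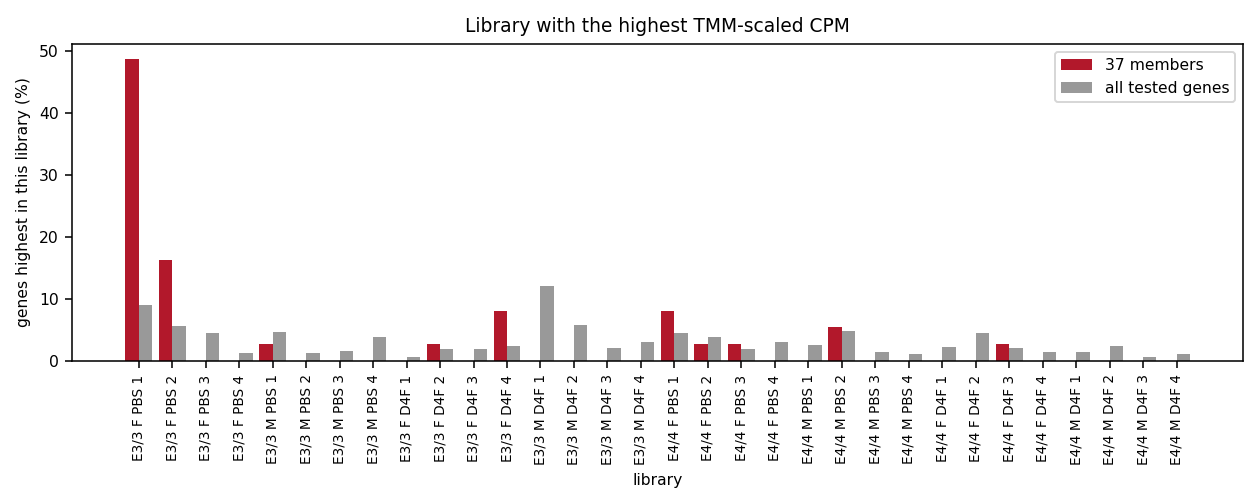
Bars give, for each library, the percentage of the 37 genes (red) and of all tested genes (grey) whose CPM was highest in that library. Vehicle-treated E3/3 female 1 holds 48.6% of the 37 genes and 9.02% of all tested genes.

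Levels differed widely between the genes when set per kilobase of annotated exon. B2m, the invariant light chain of class I molecules, was the most abundant at 110 CPM per kilobase, followed by Ifi27, an interferon-induced mitochondrial protein, at 22.2. The class I heavy chains H2-D1 and H2-K1 stood at 18.8 and 12.1 CPM per kilobase, although reads from near-identical class I genes can be divided unevenly between them. Cd74, the invariant chain that guides class II molecules, reached 4.02 CPM per kilobase, and the class II chains H2-Ab1 and H2-Aa reached 1.02 and 0.921. Apol9a, an interferon-induced apolipoprotein L gene with a near-identical neighbour Apol9b, had 0.0442 CPM per kilobase and a median of 6.5 counts. Ciita had 0.0162 CPM per kilobase, a median of 4 counts and no count at all in some mice, so its differences were not detectable at this depth.

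On GRCm38, the genes that the results below turn on are the protein-coding genes H2-Aa (chr17:34282744-34287823, minus strand), Ifit1 (chr19:34640871-34650009, plus strand), Trim30a (chr7:104409025-104465193, minus strand), Gbp2 (chr3:142620602-142638008, plus strand), Gbp4 (chr5:105115767-105139586, minus strand) and Apol9a (chr15:77403789-77411135, minus strand). The table gives 1 value per gene and does not separate exons.

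The spread between mice differed from gene to gene, with wide ranges within most roles. Stat2, a subunit of the interferon-activated ISGF3 complex, had a coefficient of variation over the 32 mice of 9.67%, the lowest of the 37. Among class I genes it ran from 12.8% for Tapbp to 34.5% for Nlrc5, and among the GTPases from 16.1% for Irgm1 to 51.9% for Gbp4. It was 52.4% for H2-Aa, 54.5% for H2-Ab1, 47.6% for H2-Eb1 and 48.7% for Cd74. Much of this came with vehicle-treated E3/3 female 1. The SD over E3/3 mice was 1.93 CPM for H2-Aa with that mouse and 0.975 CPM without it. For Cd74 it was 4.02 and 1.75 CPM. The type I interferon-induced genes ran from 13.8% for Xaf1 to 66.3% for Apol9a, whose median of 6.5 counts adds counting noise to its spread.

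The promoters of the genes were read from RefSeq (build GRCm38.p6), in windows from 250 bases before to 50 bases after each listed start. Of the 37 genes, 29 had an entry, with 36 starts in all. The core of the interferon-stimulated response element, the site that ISGF3 and IRF factors bind, was searched on both strands as TTTC, any 2 bases and TTTC again, which reads GAAA, any 2 bases and GAAA on the other strand. It was found in 18 of the 36 windows and for 16 of the 29 genes, against 3.44% of all 32851 promoters of the same length. It was present for 9 of 13 type I interferon-induced genes and 5 of 5 GTPases, for 1 of 5 class I genes (B2m), and for neither of the 2 class II genes with an entry. The gamma-activated site core TTCNNNGAA, an element of interferon gamma responses, was found in 7 of the 36 windows, against 8.30% of all promoters. The inverted CCAAT box ATTGG, or CCAAT on the other strand, was found in 19 of the 36, against 37.4%, and in all 6 class I and both class II windows. A match is a description of the letters and not a measured site. The 250 bases before the start are shown for the gene with the smallest p between genotypes over both treatments (Ifit1), a gene that fell with D4F in E3/3 mice (Gbp2) and the class II gene that differed between genotypes (H2-Aa), each 5′ to 3′, with the response element core in capitals in Ifit1 and Gbp2 and the inverted CCAAT box in capitals in H2-Aa.
Ifit1, chr19:34640639-34640888, plus strand: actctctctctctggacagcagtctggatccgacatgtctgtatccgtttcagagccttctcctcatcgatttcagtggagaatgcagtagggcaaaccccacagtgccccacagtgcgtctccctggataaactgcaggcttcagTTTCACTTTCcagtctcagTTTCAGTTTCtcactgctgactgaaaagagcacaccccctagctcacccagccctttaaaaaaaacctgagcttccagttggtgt
Gbp2, chr3:142620413-142620662, plus strand: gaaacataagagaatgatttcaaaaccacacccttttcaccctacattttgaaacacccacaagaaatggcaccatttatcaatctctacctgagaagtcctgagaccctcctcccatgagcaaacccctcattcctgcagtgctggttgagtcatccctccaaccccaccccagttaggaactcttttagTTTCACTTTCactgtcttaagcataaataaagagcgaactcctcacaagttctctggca
H2-Aa, chr17:34287824-34288073, minus strand: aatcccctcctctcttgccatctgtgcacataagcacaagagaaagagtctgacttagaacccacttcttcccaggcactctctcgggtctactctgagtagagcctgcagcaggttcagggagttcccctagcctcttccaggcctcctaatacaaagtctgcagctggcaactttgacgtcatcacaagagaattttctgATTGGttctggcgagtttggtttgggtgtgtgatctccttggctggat
In Ifit1 the core occurred 2 times, beginning 104 and 85 bases before the start, and in Gbp2 1 time, at 59 bases. In H2-Aa the box began 48 bases before the start.

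The first comparison asked how E4/4 brains differed from E3/3 brains under vehicle. None of the 36 tested genes was called (edgeR's quasi-likelihood F test, adjusted p below 0.05), where 20.4% of all tested genes were, 9.89% higher and 10.5% lower in E4/4. DESeq2 and limma-voom also called 0 of the 36, and 2 had an unadjusted p below 0.05 by edgeR, against 32.8% of all tested genes. Signs were divided, with 17 genes positive and 19 negative and a median log2 change of -0.01, against 0.02 over all tested genes. Ifi27 had the smallest p. Its level was 20.5 to 36.9 CPM (median 27.9) in E3/3 vehicle mice and 29.1 to 38.7 CPM (median 33.7) in E4/4 vehicle mice, so the ranges overlapped. Its log2 change was 0.26 (SE 0.10, edgeR adjusted p = 0.0693). Irf1, a factor induced by interferon gamma, was 6.80 to 9.86 CPM (median 9.08) in E3/3 and 6.32 to 9.66 CPM (median 7.26) in E4/4, which came to -0.25 on the log2 scale (SE 0.11, edgeR adjusted p = 0.126).

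Without vehicle-treated E3/3 female 1, 3 of the 36 genes were called between the genotypes under vehicle, all higher in E4/4. H2-Aa had a log2 change of 1.02 (edgeR adjusted p = 0.0123) in that fit, against 0.54 (SE 0.34, edgeR adjusted p = 0.274) with all mice. Ifit1, which encodes an antiviral protein that binds foreign RNA, had 0.53 (edgeR adjusted p = 0.0422) against 0.34 with all mice. Ifi27 had 0.34 (edgeR adjusted p = 0.0173). Female 1 was the highest E3/3 vehicle mouse for H2-Aa and Ifit1, so leaving it out raises their E4/4 minus E3/3 values. The p-values without female 1 do not allow for the choice of a mouse by such values. Leaving out females 1 and 2 together also gave 3, the same genes, with H2-Aa at 1.20, and 29 of the 36 genes were then positive (median 0.14). In that fit 2675 genes of the whole table were called, against 4137 (20.4% of all tested genes) with all mice. A count of 3 among the 36 therefore does not set these genes apart from the table. With depth class as a term 24 were positive (median 0.04) and none was called.

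Under D4F, a comparison that shares no library with the one under vehicle, 0 of the 36 genes were called by edgeR, where 0.00493% of all tested genes were. DESeq2 and limma-voom also called 0, and 6 had an unadjusted p below 0.05 by edgeR, against 13.8% of all tested genes. The median log2 change was 0.11, against -0.00 over all tested genes, with 28 genes positive and 8 negative. The largest change was that of H2-Aa. It was 1.39 to 3.11 CPM (median 3.00) in E3/3 D4F mice and 3.00 to 6.64 CPM (median 3.99) in E4/4 D4F mice. The E3/3 median lay next to the E4/4 minimum of 3.00, so the E3/3 mice above their median fell within the E4/4 range. The log2 change was 0.83 (SE 0.33, edgeR adjusted p = 0.267). Ifit1 changed by 0.55 (SE 0.20, edgeR adjusted p = 0.224), and Trim30a, an interferon-induced member of the TRIM family, by 0.37 (SE 0.15, edgeR adjusted p = 0.273). Xaf1, an interferon-induced inhibitor of anti-apoptotic proteins, went the other way at -0.24 (SE 0.10, edgeR adjusted p = 0.288).

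Over both treatments, 3 of the 36 genes rose in E4/4 mice and none fell, where 23% of all tested genes were called and 10.9% were higher, so the share of the genes called lay below that of the table. The median of the 36 was 0.06, against 0.01 over all tested genes, with 25 positive. Ifit1 was 1.48 to 6.66 CPM (median 2.88) in the 16 E3/3 mice and 2.54 to 5.96 CPM (median 4.23) in the 16 E4/4 mice. The E3/3 value of 6.66 came from vehicle-treated female 1, and the next E3/3 mouse was at 3.73. Ifit1 rose by 0.44 (SE 0.14, edgeR adjusted p = 0.0236). Trim30a was 1.45 to 3.89 CPM (median 2.68) in E3/3 and 2.50 to 4.01 CPM (median 3.33) in E4/4, a rise of 0.31 (SE 0.11, edgeR adjusted p = 0.0335), although reads of its neighbour Trim30d may be shared. H2-Aa was 1.09 to 9.02 CPM (median 2.34) in E3/3 and 2.41 to 6.64 CPM (median 3.97) in E4/4, a rise of 0.68 (SE 0.24, edgeR adjusted p = 0.0369). The ranges of all 3 genes overlapped between genotypes. With each of the 32 libraries left out in turn, Ifit1 was called in 32 fits, Trim30a in 28 and H2-Aa in 18. With depth class as a term none of the 3 was called, at 0.41 for Ifit1 (edgeR adjusted p = 0.0686), 0.31 for Trim30a (edgeR adjusted p = 0.068) and 0.71 for H2-Aa (edgeR adjusted p = 0.0719). With GC and length trends removed none of the 3 was called either, and Trim30a was at 0.16 (edgeR adjusted p = 0.338), Ifit1 at 0.31 (edgeR adjusted p = 0.112) and H2-Aa at 0.62 (edgeR adjusted p = 0.0685).

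**Figure D3:**
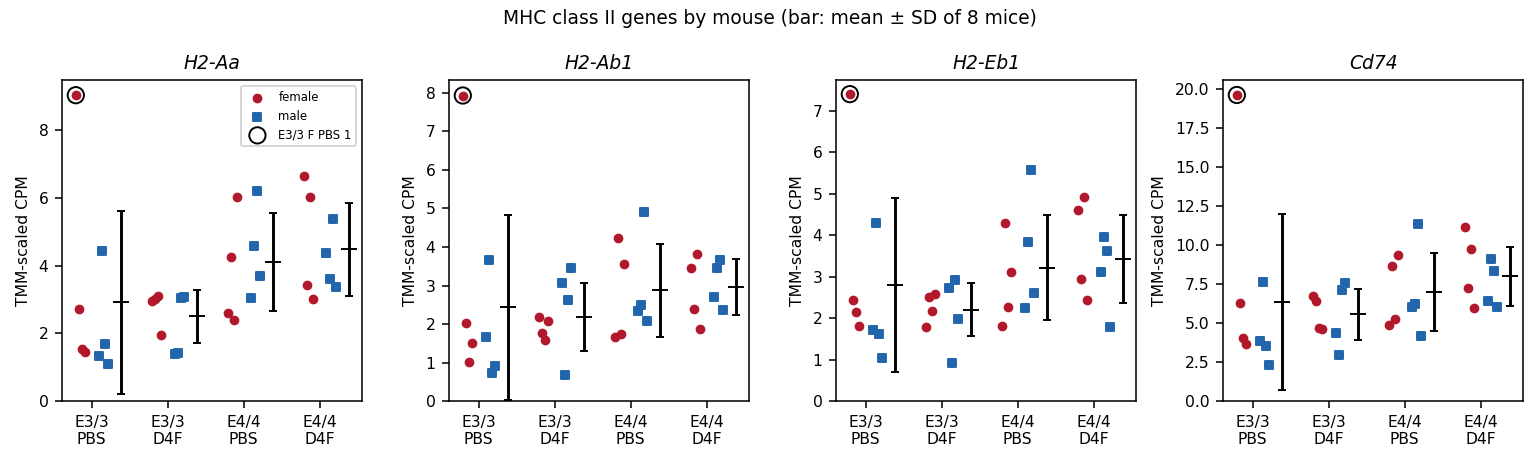
Each point is the TMM-scaled CPM of H2-Aa, H2-Ab1, H2-Eb1 or Cd74 in 1 mouse by genotype and treatment (circles female, squares male), and bars give the mean ± SD of 8 mice. Vehicle-treated E3/3 female 1, ringed, is the highest mouse for each gene, at 9.02 CPM for H2-Aa, and the E4/4 medians lie above the E3/3 medians under each treatment, with overlapping ranges.

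The class II genes shared a direction between genotypes. All 4 tested genes were positive under vehicle (median 0.27), under D4F (median 0.57) and over both treatments (median 0.41), and 1 of the 4, H2-Aa, was called, over both treatments. The comparison over both treatments averages those under vehicle and under D4F, so its signs follow from theirs. The 4 genes were all highest in the same mouse, and their shared signs are not independent. H2-Aa and H2-Ab1 encode the alpha and beta chains of the I-A molecule, H2-Eb1 the beta chain of I-E. In E3/3 vehicle mice Cd74 was 2.34 to 19.6 CPM (median 3.94), and in E4/4 vehicle mice 4.21 to 11.4 CPM (median 6.14). Under D4F it was 2.99 to 7.59 CPM (median 5.57) in E3/3 and 5.96 to 11.2 CPM (median 7.82) in E4/4. H2-Eb1 was 0.928 to 2.93 CPM (median 2.34) in E3/3 D4F mice and 1.79 to 4.93 CPM (median 3.37) in E4/4 D4F mice. E4/4 medians were thus the higher in each pair, with overlapping ranges.

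Without vehicle-treated E3/3 female 1, 7 of the 36 genes were called over both treatments, all higher in E4/4. They were the 4 class II genes, Ifit1, Trim30a and Isg15, a ubiquitin-like protein that is conjugated to others after interferon. H2-Aa then rose by 0.92 (edgeR adjusted p = 0.00124), H2-Ab1 by 0.64 (edgeR adjusted p = 0.0347), H2-Eb1 by 0.61 (edgeR adjusted p = 0.0215) and Cd74 by 0.58 (edgeR adjusted p = 0.0157). Ifit1 rose by 0.54 (edgeR adjusted p = 0.00328) and Isg15 by 0.50 (edgeR adjusted p = 0.031). Female 1 was the highest E3/3 mouse for each of these genes but Trim30a, so leaving it out raises their E4/4 minus E3/3 values. The p-values without female 1 do not allow for the choice of a mouse by such values. With female 1 in the fit, Isg15 was at 0.40 (SE 0.18, edgeR adjusted p = 0.109) and H2-Eb1 at 0.43 (SE 0.22, edgeR adjusted p = 0.155). Leaving out females 1 and 2 together also gave 7, with Gbp4 (0.47, edgeR adjusted p = 0.0252) in place of Isg15. Calls were common over the whole table too, 4237 genes in that fit against 4678 (23% of all tested genes) with all mice. A count of 7 among the 36 therefore does not set these genes apart from the table.

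Markers of several cell types differed between genotypes over both treatments, where 23% of all tested genes were called. Of 10 microglial markers 3 rose in E4/4 mice (Cx3cr1 by 0.15, P2ry12 by 0.23 and Sall1 by 0.39), against 10.9% of all tested genes, and the median of the 10 was 0.07. Summed microglial CPM was 340 to 465 (median 380) in E3/3 and 340 to 453 (median 412) in E4/4. None of the 8 perivascular macrophage markers was called, and their median was 0.17. Their sums were 4.65 to 19.9 CPM (median 8.17) in E3/3 and 8.18 to 14.4 CPM (median 9.64) in E4/4. Of 8 meningeal fibroblast markers 3 rose (Dcn 0.68, Lum 0.73, Aldh1a2 0.70), and their sums had a median of 53.7 CPM in E3/3 and 78.6 CPM in E4/4. Median sums were 213 and 215 CPM for endothelial markers, and 3116 and 3285 CPM for astrocyte markers, in E3/3 and E4/4. Markers of T and NK cells, of B cells and of dendritic cells and monocytes were sparse, with a median below 10 counts for 8 of 10, 3 of 6 and 4 of 7 genes, though none was at 0 in every library. Of the 4 tested B cell markers 1 rose and 1 fell (Jchain 0.50, Ighm -0.49), and summed B cell CPM was 61.8 ± 18.9 in E3/3 and 44.5 ± 14.9 in E4/4 (SD, n = 16). The largest median among the 6 genes was 1444.5 counts, so the sum is mostly that of 1 gene. All 8 choroid plexus markers were positive (median 1.02), 1 of them called (Aqp1, 1.65), with sums of 7.76 to 1326 CPM in E3/3 and 14.4 to 1380 CPM in E4/4. Of 8 neuronal markers 2 rose and 3 fell (median -0.19). All 5 blood markers fell in E4/4, with a median of -2.29, and summed blood CPM was 7.67 to 113 in E3/3 and 2.32 to 43.5 in E4/4. The part of these cell types in the class II values was not tested.

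Class I genes were close to level between genotypes. Over both treatments none of the 7 was called, by edgeR, limma-voom or DESeq2, and log2 changes ran from -0.11 for Tap2 to 0.04, with a median of 0.01. With trends of counts with gene GC content and length removed, B2m, a short gene, was lower in E4/4 by -0.41 under vehicle (edgeR adjusted p = 0.0173) and by -0.28 over both treatments (edgeR adjusted p = 0.0177), against -0.16 and -0.10 in the fit without that step. Among the 4 factors the largest change over both treatments was that of Irf7, which amplifies type I interferon production, at -0.29 (SE 0.16, edgeR adjusted p = 0.194).

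**Figure D4:**
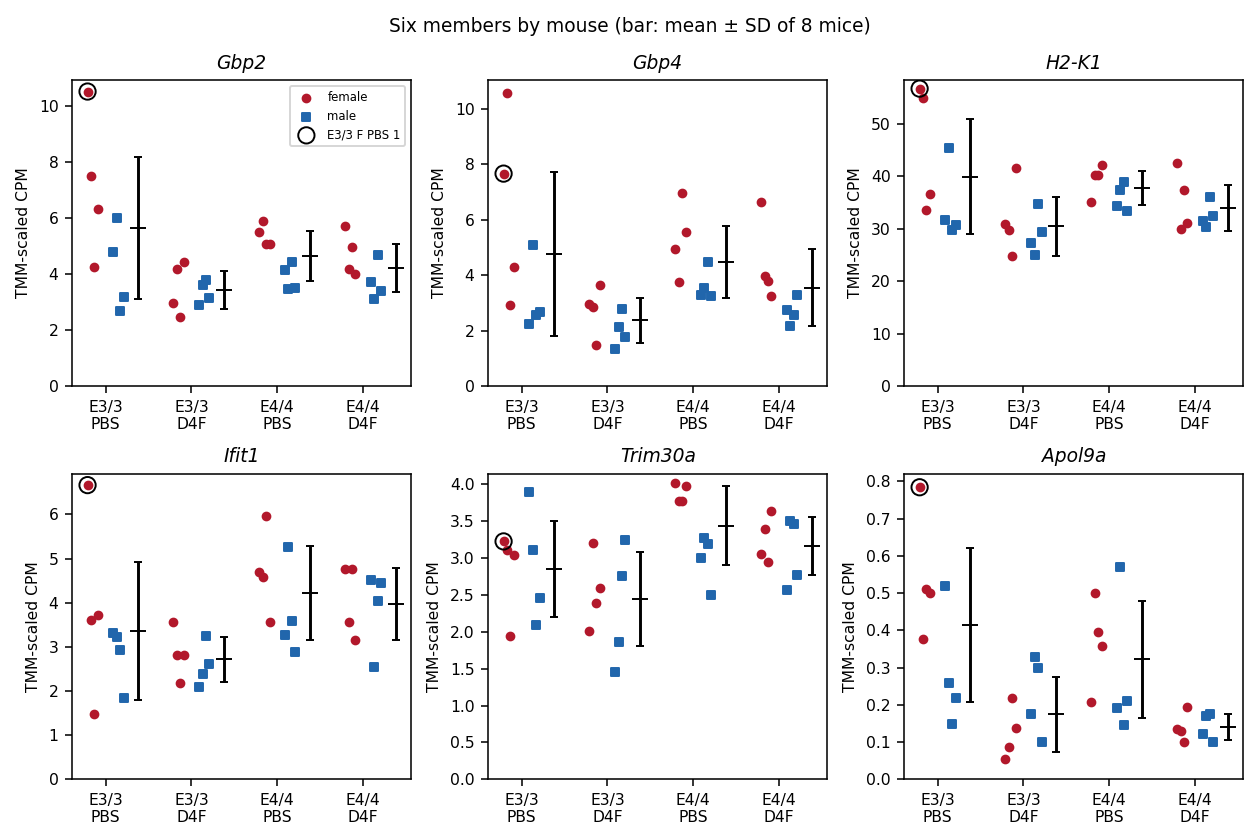
Each point is the TMM-scaled CPM of Gbp2, Gbp4, H2-K1, Ifit1, Trim30a or Apol9a in 1 mouse (circles female, squares male), and bars give the mean ± SD of 8 mice per genotype and treatment. For Gbp2 and Gbp4 the E3/3 vehicle mice reach 10.5 and 10.6 CPM, and the E3/3 D4F mice stay at or below 4.42 and 3.64 CPM.

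The second question was how D4F changed these genes. In E3/3 mice 2 of the 36 genes fell with D4F and none rose, where 3.25% of all tested genes were called, 1.81% higher and 1.44% lower. Signs were uneven, 33 negative and 3 positive, with a median of -0.19 against 0.01 over all tested genes. Both called genes encode guanylate-binding proteins, interferon-induced GTPases that act against intracellular pathogens. Gbp2 was 2.69 to 10.5 CPM (median 5.38) in vehicle mice and 2.46 to 4.42 CPM (median 3.37) in D4F mice, a ratio of 0.63, or -0.67 on the log2 scale (SE 0.17, edgeR adjusted p = 0.0256). Gbp4 was 2.23 to 10.6 CPM (median 3.61) in vehicle mice and 1.34 to 3.64 CPM (median 2.46) in D4F mice, at -0.93 (SE 0.23, edgeR adjusted p = 0.0274). The ranges overlapped for both genes, and the highest vehicle values belonged to females 1 and 2.

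Just outside the threshold in E3/3 mice were H2-K1 and Apol9a. H2-K1 was 29.8 to 56.7 CPM (median 35.1) in vehicle mice and 24.8 to 41.6 CPM (median 29.6) in D4F mice, at -0.38 (SE 0.11, edgeR adjusted p = 0.0554). Apol9a was 0.149 to 0.784 CPM (median 0.438) in vehicle mice and 0.0544 to 0.329 CPM (median 0.155) in D4F mice, at -1.20 (SE 0.36, edgeR adjusted p = 0.059). This gene passed the filter on low counts mainly through vehicle mice, so the filter favoured a fall with D4F. B2m followed at -0.25 (SE 0.10, edgeR adjusted p = 0.157). With females 1 and 2 left out, the 2 highest vehicle mice for H2-K1, that gene was at -0.20, B2m at -0.13 and Apol9a at -1.15. In the higher-depth libraries alone, with 2 E3/3 vehicle mice, the 3 genes were at -0.17, -0.02 and -0.67. All 7 class I genes were negative (median -0.23), as were 13 of 15 type I interferon-induced genes (median -0.22) and 5 of 6 GTPases (median -0.25). Ifi27 and Xaf1 among the interferon-induced genes had positive values, 0.21 and 0.11.

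The D4F result in E3/3 mice rested on few libraries. Without vehicle-treated female 1, Gbp2 was at -0.54 (edgeR adjusted p = 0.0669) and Gbp4 at -0.88 (edgeR adjusted p = 0.0553), and no gene was called. Without female 2 they were at -0.65 (edgeR adjusted p = 0.0624) and -0.74 (edgeR adjusted p = 0.0892), again with none called. The 4 class II genes, all negative with every mouse in the fit (median -0.14), were all positive without female 1 (median 0.32), none of them called, and with depth class as a term 2 were positive and 2 negative. Female 1 was the highest E3/3 vehicle mouse for the class II genes and Gbp2, and female 2 for Gbp4. Leaving them out therefore works against a fall with D4F, and these fits do not allow for that choice. With both females left out, 24 of the 36 genes were negative, the median was -0.06, and no gene of the whole table was called. With depth class as a term no gene was called, Gbp2 was at -0.56 (edgeR adjusted p = 0.200) and Gbp4 at -0.79 (edgeR adjusted p = 0.202). In the higher-depth libraries alone 22 of 37 genes were positive, with a median of 0.04. That fit rests on 2 E3/3 vehicle mice and also lacks females 1 and 2, so it does not separate depth from these mice. Of the markers, 3 of 8 for endothelium (Cdh5 -0.48, Flt1 -0.33, Pecam1 -0.32) and 2 of 8 for astrocytes also fell with D4F in E3/3 mice. Of all tested genes 1.44% were called lower there. All 8 perivascular macrophage and all 8 meningeal fibroblast markers were negative (medians -0.40 and -0.53), none of them called, and their part was not tested.

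In E4/4 mice D4F gave no call among the 36 genes with any of the 3 tools, edgeR, limma-voom and DESeq2. By edgeR 2 reached an unadjusted p below 0.05, against 1.88% of all tested genes, and the percentage called over all tested genes was 0. The median was -0.11 against 0.00 over all tested genes, with 29 negative and 7 positive. All 7 class I genes were negative (median -0.14) and all 4 class II genes positive (median 0.10). The smallest p was that of Apol9a, at 0.145 to 0.569 CPM (median 0.284) in vehicle mice and 0.101 to 0.195 CPM (median 0.133) in D4F mice. Its log2 change was -1.17 (SE 0.36, edgeR adjusted p = 1), beside -1.20 in the E3/3 mice, which are other libraries. In both genotypes Apol9a passed the filter on low counts mainly through vehicle mice, so the like values are not read as support for each other. Xaf1 was at -0.21 (SE 0.10), H2-D1 at -0.15 (SE 0.09), Rsad2, an antiviral radical SAM enzyme, at -0.31 (SE 0.19) and Nlrc5, the activator of class I transcription, at -0.29 (SE 0.18).

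**Figure D5:**
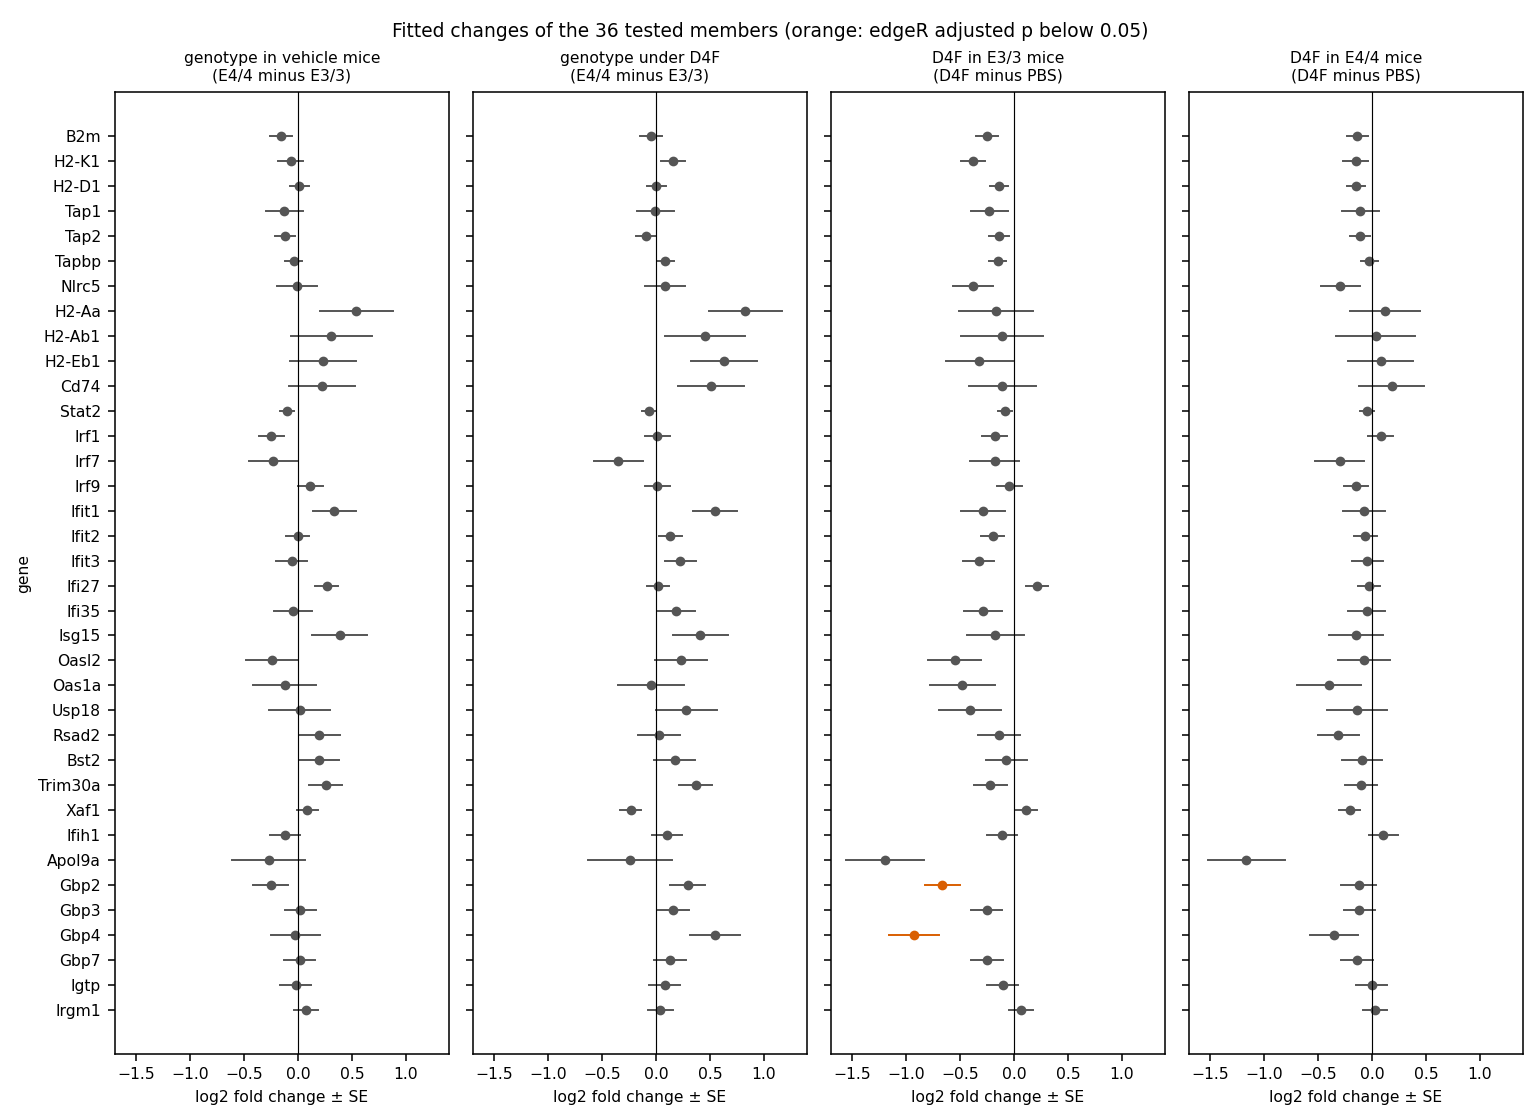
Points are log2 fold changes of the 36 tested genes and bars ± SE, from the same edgeR fit, for genotype under vehicle, genotype under D4F, D4F in E3/3 and D4F in E4/4 mice. Orange points (Gbp2 at -0.67 and Gbp4 at -0.93 for D4F in E3/3) have an adjusted p below 0.05, and most points for D4F in E3/3 lie left of 0.

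Over both genotypes D4F gave no call among the 36 genes by edgeR, where the percentage called over all tested genes was 0. DESeq2 called 1, Gbp4, and limma-voom none, and 8 had an unadjusted p below 0.05 by edgeR, against 12% of all tested genes. Of the 36, 33 were negative, with a median of -0.16 against 0.00 over all tested genes, and with depth class as a term 32 were negative (median -0.13). Without females 1 and 2, 29 were negative and the median was -0.09, and in the higher-depth libraries alone 14 of 37 were positive (median -0.04). Apol9a was 0.145 to 0.784 CPM (median 0.367) in the 16 vehicle mice and 0.0544 to 0.329 CPM (median 0.136) in the 16 D4F mice, at -1.18 (SE 0.25, unadjusted p = 6.17e-05, edgeR adjusted p = 0.136). The level was that of a few counts per mouse, 2 to 19 over the 32 libraries. The filter on low counts was passed mainly through vehicle mice, and the p-values do not allow for that. Its near-identical neighbour Apol9b was at -0.62 (SE 0.29, edgeR adjusted p = 0.386). Gbp4 was at -0.64 (SE 0.16, edgeR adjusted p = 0.152), Gbp2 at -0.39 (SE 0.12, edgeR adjusted p = 0.201) and H2-K1 at -0.27 (SE 0.08, edgeR adjusted p = 0.201). Without females 1 and 2, Apol9a was at -1.16, Gbp4 at -0.44, Gbp2 at -0.29 and H2-K1 at -0.18. These vehicle mice were chosen for high values, so leaving them out works against a fall with D4F.

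Whether the D4F change differed between genotypes was tested by the interaction. None of the 36 genes was called by any of the 3 tools, the percentage over all tested genes was 0 by edgeR, and 2 of the 36 reached an unadjusted p below 0.05 by edgeR, against 10.4% of all tested genes. The difference, E4/4 minus E3/3, was 0.54 for Gbp2 (SE 0.23, edgeR adjusted p = 0.396) and 0.57 for Gbp4 (SE 0.32, edgeR adjusted p = 0.551). Without females 1 and 2 these were 0.32 and 0.16, and in the higher-depth libraries alone 0.15 and 0.04. Leaving out vehicle mice chosen for high values lowers such differences, and the higher-depth libraries lack them too. Of the 36 genes 28 were positive (median 0.12), against 22 with depth class as a term (median 0.05) and 15 without females 1 and 2 (median -0.04). For Apol9a the difference was 0.03. The falls in E3/3 mice are therefore not shown to be particular to that genotype.

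Females tended to hold the higher values. No gene was called between the sexes by edgeR, where 0.0739% of all tested genes were, 0.0394% higher and 0.0345% lower in females. DESeq2 called 1, Gbp4, and limma-voom 0, and 9 of the 36 had an unadjusted p below 0.05 by edgeR, against 5.47% of all tested genes. The median log2 change, females minus males, was 0.11 against -0.00 over all tested genes, with 31 of 36 positive. Gbp4 was 1.49 to 10.6 CPM (median 3.87) in 16 females and 1.34 to 5.09 CPM (median 2.70) in 16 males, at 0.67 (SE 0.16, edgeR adjusted p = 0.232). Gbp2 was 2.46 to 10.5 CPM (median 5.01) in females and 2.69 to 5.99 CPM (median 3.54) in males, at 0.41 (SE 0.12, edgeR adjusted p = 0.521). H2-D1 was at 0.18 (SE 0.06, edgeR adjusted p = 0.732), Rsad2 at 0.36 (SE 0.14) and Oas1a, a sensor of double-stranded RNA whose reads may be shared with Oas1g, at 0.52 (SE 0.21). Without E3/3 female 1, 27 of the 36 were positive, and without females 1 and 2, 21 were, with a median of 0.04. Both were chosen for high values, so leaving them out lowers female minus male values. Female 2 was the highest mouse for 3 of the 6 GTPases. All 6 were positive with all mice (median 0.24), without female 2 (median 0.19) and without both females (median 0.18), when Gbp4 was at 0.47 and Gbp2 at 0.30.

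The genotype difference under vehicle was also compared between the sexes. None of the 36 genes was called by any of the 3 tools, and the percentage over all tested genes was 0 by edgeR. Tap1 was the 1 gene with an unadjusted p below 0.05 by edgeR, against 5.37% of all tested genes, at -0.72 (SE 0.34, edgeR adjusted p = 0.907), E4/4 minus E3/3 being lower in females. Isg15 was at -0.98 (SE 0.51), Bst2, the antiviral membrane protein tetherin, at -0.62 (SE 0.38), Tapbp, which loads peptides onto class I, at -0.25 (SE 0.16), and Gbp7 at 0.51 (SE 0.29). Without E3/3 female 1 Isg15 was at -0.56, Bst2 at -0.34, Tapbp at -0.06, Tap1 at -0.59 and Gbp7 at 0.39. Of the 36 genes 27 were negative with all mice and also with depth class as a term, and 12 were negative without females 1 and 2. All 4 class II genes were negative, with a median of -0.94, and without E3/3 female 1 the median was -0.03 and 2 were positive. Female 1 was the highest E3/3 mouse for the class II genes, so leaving it out raises their values.

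Other genes of the pathway were counted in the same fit. Of 60 other interferon-induced genes 56 were tested. Under vehicle 3 rose in E4/4 (Gbp6 by 1.29, Ifitm1 by 0.74 and Trim30d by 0.52) and 1 fell (Znfx1, -0.26), a share below the 20.4% of all tested genes, with a median of 0.00. Over both treatments 5 rose and 3 fell, where 23% of all tested genes were called. Mx2, a dynamin-like antiviral GTPase, rose by 0.51 (edgeR adjusted p = 0.00917) and Gbp6 by 0.84 (edgeR adjusted p = 0.00175). Gbp6 was 0.163 to 0.741 CPM (median 0.418) in E3/3 vehicle mice and 0.627 to 1.68 CPM (median 1.11) in E4/4 vehicle mice, with a small overlap, and its family members share sequence. With D4F in E3/3 mice 1 of the 56 fell, where 1.44% of all tested genes did. That gene was Tgtp2, an immunity-related GTPase with a near-identical copy Tgtp1, at -1.09 (edgeR adjusted p = 0.0346). It was 0.381 to 2.63 CPM (median 1.14) under vehicle and 0.116 to 1.14 CPM (median 0.550) under D4F, and it was not called with females 1 and 2 left out.

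Among 22 interferons, receptors and signalling genes 15 were tested. Over both treatments 2 rose in E4/4 and 2 fell, and the shares called here and in the next lists lay near the 23% of all tested genes. Ifnlr1, a subunit of the receptor for interferon lambda, rose by 1.17 (edgeR adjusted p = 0.00675). Ifngr2, a chain of the interferon gamma receptor, fell by 0.19 and Socs3, a feedback inhibitor, by 0.34. With D4F in E3/3 mice none of these 15 was called, where 3.25% of all tested genes were. Of 24 nucleic acid sensors and regulatory factors 22 were tested, and 2 rose and 4 fell over both treatments, among them Tlr3, the endosomal receptor for double-stranded RNA, at 0.28 and Irf2, a repressor of interferon responses, at -0.36. Of 26 other antigen processing genes 24 were tested, and 2 rose and 3 fell. Erap1, which trims peptides for class I, rose by 0.22, and Calr, the chaperone calreticulin, fell by 0.24. With D4F in E3/3 mice, a comparison that shares the E3/3 vehicle libraries, Calr was at -0.35 (edgeR adjusted p = 0.0147), a call lost with depth class as a term and without females 1 and 2.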

How the data were processed

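RNA from brain homogenates was made into strand-keeping mRNA libraries and sequenced, per the labels' protocols. The deposited table holds raw whole-number counts for each gene symbol. The authors used Trimmomatic, HISAT2, featureCounts and the mouse build GRCm38, per the submitters' processing notes, whose versions, annotation and strand setting were not given in the sources at hand. Reads of near-identical genes can therefore be divided unevenly.

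Models were fitted in edgeR 4.0.16 (R 4.3.3). The filterByExpr step (minimum count 10, minimum total 15) left 20298 genes, libraries were scaled by TMM, and robust quasi-likelihood models with 1 coefficient for each of the 8 groups were fitted to all 32 libraries. The 9 comparisons were contrasts averaging the sexes, except those about sex. F tests were two-sided, p-values were adjusted by Benjamini and Hochberg over all tested genes, and genes were called at an adjusted p below 0.05. P-values reflect variation among these mice. Comparisons that use the same vehicle libraries are not independent of each other. The scripts were tested on simulated data.

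Coordinates and exon lengths come from GENCODE M21 on GRCm38. The members and lists were chosen with earlier results of these data known. Named genes are those called in any comparison and, where fewer than 5 were called, those with the smallest p up to 5, and at most 4 called genes per other list and comparison. Other members named were chosen after their values were seen. Of 218 genes in the other lists, 3 were found under newer names. Alternatives were DESeq2 1.42.0, limma 3.58.1 (voom), other scalings, filters and samples, depth class, GC and length trends, a replicate block and each library left out.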

Additional observations from a re-analysis of the deposited data

Results flagged for a closer look

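In groups of 8 mice of 1 genotype and treatment, the highest or lowest mouse was compared with its nearest neighbour as a share of the group's range, and 18 of 144 groups passed the 95% limit of Dixon's test (0.526). Chance alone gives about 1 in 20 for independent, normally spread values, which CPM of genes induced together need not be. The share over all tested genes was not counted, so the excess is not shown to be particular to these genes. In vehicle-treated E3/3 female 1, 6 genes stood apart: Tapbp was at 43.4 CPM (nearest mouse 28.9), H2-Aa at 9.02 (nearest 4.44), H2-Ab1 at 7.93 (nearest 3.66), Cd74 at 19.6 (nearest 7.63), Ifit1 at 6.66 (nearest 3.73) and Isg15 at 3.27 (nearest 1.77). In vehicle-treated E3/3 female 2 Nlrc5 was at 4.84 CPM, with the nearest mouse at 2.89. In vehicle-treated E3/3 male 1 Irf1 was the lowest of its group at 6.80 CPM, the nearest being 8.43.

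D4F-treated E3/3 female 4 was the highest of its group for B2m (126 CPM, nearest 93.7), Stat2 (52.8, nearest 41.7) and Irf1 (10.8, nearest 8.19). D4F-treated E3/3 male 1 was the highest for Tap2 (14.8 CPM, nearest 12.4), and D4F-treated E3/3 male 3 for Ifi35 (5.39 CPM, nearest 3.69). In E4/4 mice, vehicle-treated male 1 was the lowest for B2m (68.8 CPM, nearest 93.0) and vehicle-treated male 2 the highest for Isg15 (3.53 CPM, nearest 2.02). Vehicle-treated E4/4 female 1 was the highest for Rsad2 (3.49 CPM, nearest 2.40) and Irgm1 (13.4 CPM, nearest 10.9), and D4F-treated E4/4 female 1 for Gbp4 (6.64 CPM, nearest 3.95).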

How the results depend on the processing

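The number of the 36 genes called was 0 under every alternative for D4F in E4/4, the interaction, genotype under D4F and genotype by sex. For genotype under vehicle (0 called), removing GC and length trends gave 2, leaving out E3/3 vehicle females 1 and 2 together (an alternative chosen after seeing the data) gave 3, and leaving out 1 library gave 0 to 3: 3 without E3/3 vehicle female 1, and 1 without E3/3 vehicle male 1, E4/4 vehicle female 4, E4/4 vehicle male 1 or E4/4 D4F male 1. For D4F in E3/3 (2 called), DESeq2, a minimum count of 30 and thinning to the smallest total each gave 3, limma-voom gave 1, and depth class as a term, the higher-depth libraries alone, the compared groups alone and females 1 and 2 left out each gave 0. Leaving out 1 library gave 0 to 5: 0 without E3/3 vehicle female 1, female 2, male 1 or male 2 or D4F female 3; 1 without D4F female 1, female 2 or male 1; 4 without vehicle male 3 or D4F female 4; 5 without vehicle female 4. For genotype over both treatments (3 called), no filter on low counts gave 1, depth class 0, the higher-depth libraries 1, GC and length trends removed 1 (B2m, lower), females 1 and 2 left out 7, and leaving out 1 library 1 to 7: 7 without vehicle female 1, and 1 without E3/3 vehicle female 3, vehicle male 3 or D4F male 2. For D4F over both genotypes DESeq2 gave 1, and leaving out 1 library 0 to 2: 2 without E3/3 vehicle female 4 and 1 without vehicle male 3. For sex DESeq2 gave 1, and leaving out 1 library 0 to 1: 1 without E3/3 vehicle female 3. The cause of these shifts was not tested. No named gene changed sign in a fit where it was called, and 51 of the fits of named genes lost a call and 32 gained one, against 1871 that stayed on the same side of the threshold.

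The replicate block left the counts at 0 for genotype under vehicle, 2 for D4F in E3/3, 3 for genotype over both treatments and 0 for the others. Samples with the same number deviated together little more than others (median r 0.012 over 112 pairs, against -0.003 for other numbers). The range was -0.407 to 0.322, with 25 above 0.1, and 11 of 32 libraries correlated best with their own number. The main fit treats the mice as unpaired, though this check could miss a weak pairing. Over all tested genes, calls for genotype under vehicle were 4137, with 1286 under depth class as a term and 4 in the higher-depth libraries. Calls for D4F in E3/3 were 659, with 0 under both. Low counts limit Ciita and Apol9a in particular.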

Other observations

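The class I peptide transporter genes Tap1 and Tap2 lie close to the class II genes in the MHC on chromosome 17 (GRCm38), and their values between genotypes had other signs. In order of their lower coordinate, Tap1 lies at 34187553, Tap2 at 34203527, H2-Ab1 at 34257689, H2-Aa at 34282744 and H2-Eb1 at 34305867. Over both treatments Tap1 was at -0.07 (SE 0.12) and Tap2 at -0.11 (SE 0.07), while H2-Ab1 was at 0.38 (SE 0.26), H2-Aa at 0.68 (SE 0.24) and H2-Eb1 at 0.43 (SE 0.22). Cd74, on chromosome 18, was at 0.36 (SE 0.22). The heavy chain genes at either side, H2-K1 and H2-D1, were at 0.04 and 0.01. Only H2-Aa was called, and the difference between these genes was not tested.

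Gbp2, Gbp3 and Gbp7 lie together on chromosome 3 and Gbp4 on chromosome 5. With D4F in E3/3 mice Gbp2 fell by 0.67 and Gbp4 by 0.93, beside -0.25 each for Gbp3 and Gbp7. The same 2 genes had the smallest p between the sexes, a comparison that shares libraries with the first. Igtp and Irgm1, immunity-related GTPases on chromosome 11, were at -0.10 and 0.06 with D4F in E3/3 mice.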
